A study of Homo sapiens with 6 samples.

Results

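The EGFR family receptor and ligand genes are 10 genes, chosen by symbol from the 17280 genes of a deposited expression table: the receptor genes EGFR, ERBB2 and ERBB3, the ligand genes TGFA, HBEGF, AREG, EREG, BTC and EPGN, and ERRFI1, which encodes a feedback inhibitor of the receptors. All 10 symbols were found, and their NCBI gene identifiers matched those of RefSeq. RNA was sequenced from spheres of CAL-27, a human tongue carcinoma line of squamous origin. Spheres are unattached cultures meant to favour stem-like cells, and all libraries come from this 1 line. Of the 6 libraries, 3 are titled LF3, after an inhibitor of the contact between beta-catenin and its DNA-binding partner TCF4, with an exposure of 24 h according to the series design, and 3 are titled CON, described as normal control. The treatment field of the LF3 libraries names elesclomol with copper in place of LF3, so the groups are called by their titles, and which agent the cells received is not settled by the labels. The labels state neither dose nor vehicle. The series title ties altered Wnt signalling to the survival of stem-like cancer cells under cuproptosis, a copper-driven cell death.

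The EGF receptor and its relatives are tyrosine kinases of the cell surface that pair when a ligand binds and then drive the RAS-ERK and PI3K-AKT pathways. EGFR is activated by EGF, TGFA, AREG, EREG, HBEGF, BTC and EPGN, which are made as membrane-bound precursors and released by proteases. ERBB2 has no known ligand of its own and acts as a partner of the other receptors, while ERBB3 has little kinase activity and binds neuregulins. ERRFI1, also called MIG6, binds the kinase domain of the receptors and is itself induced by receptor signalling. In squamous carcinoma and normal keratinocytes, autocrine EGFR signalling supports growth, and EGFR is often abundant.

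Levels are in TPM, a relative abundance of transcripts, which is corrected for gene length and so allows levels to be set against each other between genes. Means are given ± SD with n = 3 libraries in each group. The log2 fold change of a gene is the mean log2(TPM + 1) of LF3 less that of CON, given ± its standard error from limma, and p-values are limma's, adjusted over the 12195 genes whose mean reached 1 TPM, which were the genes tested. A gene is called higher or lower in LF3 at an adjusted p under 0.05. Since TPM values carry no read depth, how many reads stand behind a value is unknown. The labels do not call the replicates separate cultures, and the spread that the p-values rest on may therefore be technical.

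The whole table sets the scale for reading these genes. As deposited, 85.5% of tested genes were called, 53.2% higher and 32.3% lower in LF3, and the groups did not overlap in 86.2%. Over all tested genes the median log2 fold change came to 0.24 as deposited, -0.0055 after each library was rescaled by its median ratio, and 0.026 with quantile normalization. After rescaling 42.6% of tested genes were higher and 42.7% lower, and with quantile normalization 43.9% were higher and 41.5% lower. Squamous epithelial markers summed to 1273 to 1329 TPM in LF3 libraries and 1153 to 1202 TPM in CON libraries, but single markers moved apart within that sum. Of 8 tested, 4 were higher and 3 lower in LF3 as deposited, 2 and 5 with median-ratio rescaling, and 1 and 6 with quantile normalization. KRT5, a basal keratin, averaged 454 TPM in LF3 and 102 TPM in CON, KRT17, a keratin of stressed epithelium, averaged 58.8 TPM in LF3 and 200.0 TPM in CON, and PERP, a desmosome gene, averaged 196 TPM in LF3 and 302 TPM in CON, each called under all 3 scalings. KRT14, another basal keratin and the remaining marker of the 9, stayed under 1 TPM in all 6 libraries. The leukocyte marker PTPRC was between 0 and 0.02 TPM in every library, and 11 markers of leukocytes, endothelium and fibroblasts summed to 15.1 to 16.4 TPM in LF3 and 15.8 to 17.2 TPM in CON, with 6 of the 11 below the filter. The other 5 were all called as deposited, 2 higher and 3 lower. The endothelial cadherin gene CDH5 was higher in LF3, at 5.70 to 6.93 TPM against 0.11 TPM in each CON library, and CD14, a monocyte marker, averaged 1.99 TPM in LF3 and 0.693 TPM in CON. Of the fibroblast markers, COL1A1 averaged 4.31 TPM in LF3 and 9.27 TPM in CON, LUM averaged 0.620 TPM in LF3 and 2.52 TPM in CON, and PDGFRB averaged 1.91 TPM in LF3 and 2.55 TPM in CON. With quantile normalization PDGFRB lost its call, while the other 4 kept call and direction under both other scalings. CDH5 and CD14 passed the filter only through their LF3 values, and LUM only through its CON values. The part of these markers in the results was not tested.

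Of the 10 genes, 9 passed the filter and 7 of these were called, 4 higher and 3 lower in LF3. That is 77.8% of the 9, close to the 85.5% of all tested genes, so the count does not set these genes apart. EREG, BTC, ERBB2 and ERBB3 were higher in LF3, ERRFI1, TGFA and AREG were lower, EGFR and HBEGF were not called, and EPGN lay below the filter. BTC passed the filter only through its LF3 values. The 7 called genes had groups that did not overlap, as did 86.2% of all tested genes. Under either of the other scalings all 9 were called, against 85.3% of tested genes with median-ratio rescaling and 85.4% with quantile normalization. The same 4 genes were then higher and 5 were lower, because EGFR and HBEGF were called lower. The fall of ERRFI1 was the largest change, and it left the inhibitor's RNA well below that of EGFR in LF3 libraries, whereas it exceeded that of EGFR in CON libraries. In bulk RNA, fewer cells of a type and less RNA per cell cannot be told apart.

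**Figure D1:**
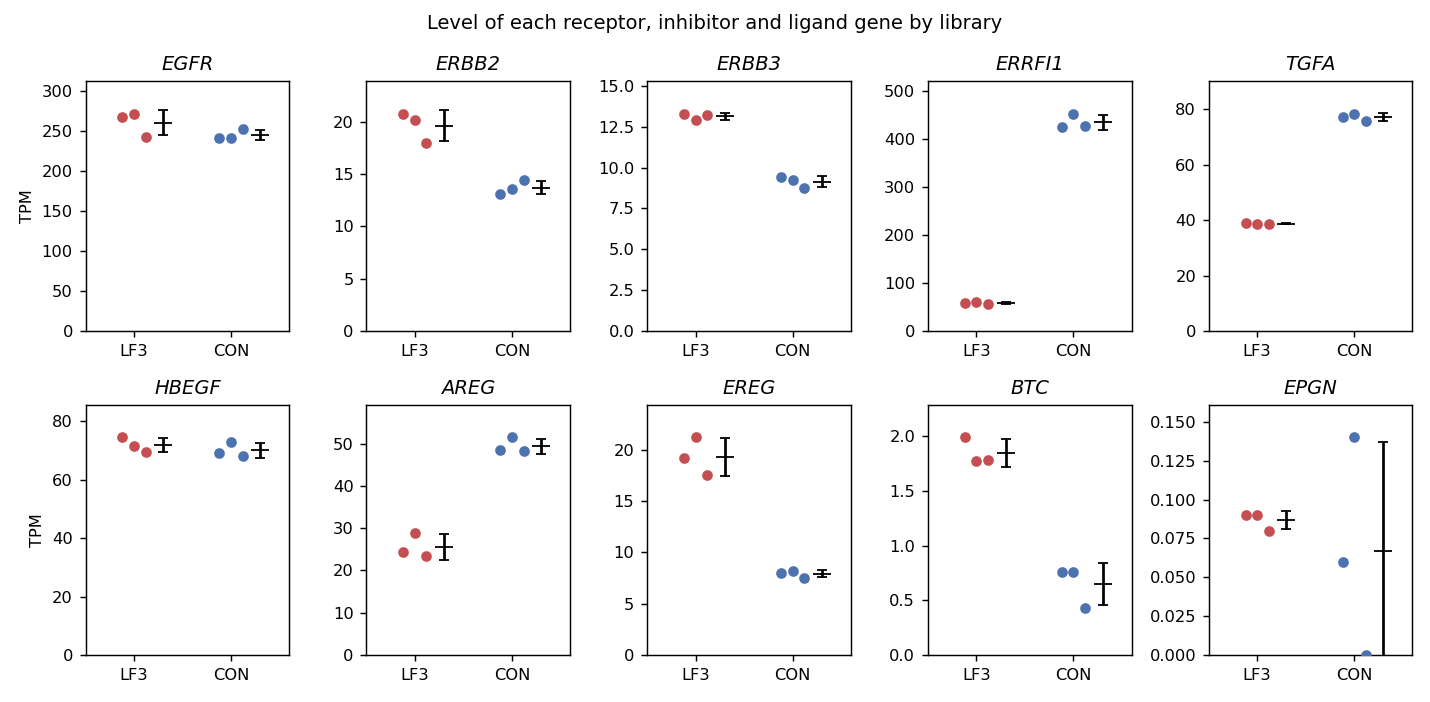
TPM of the 10 genes in each library, LF3 in red on the left and CON in blue on the right of each panel, with the mean and SD in black (n = 3 each); each axis starts at 0 and has its own range. ERRFI1, TGFA and AREG lie lower in all 3 LF3 libraries, EREG, BTC, ERBB2 and ERBB3 lie higher, and EGFR, HBEGF and EPGN overlap between groups.

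EGFR was the most abundant of the receptor genes in both groups. It stood at 267, 272 and 242 TPM in LF3 libraries, against 241, 241 and 253 TPM in CON libraries. The groups overlapped, since LF3 replicate 3 lay within the range of CON. Means were 260 ± 15.8 TPM in LF3 and 245 ± 6.59 TPM in CON. Its log2 fold change was 0.087 ± 0.046 (limma adjusted p = 0.101), with a 95% interval from -0.016 to 0.19. The sign depended on the scaling, as the log2 fold change was -0.19 after median-ratio rescaling (limma adjusted p = 0.00143) and -0.16 with quantile normalization (adjusted p = 0.00575). Without LF3 replicate 3 it was called higher as deposited, at 0.14 (limma adjusted p = 0.00610). By mean level EGFR ranked 581st in LF3 and 510th in CON among the tested genes. An antisense gene, EGFR-AS1, overlaps EGFR in RefSeq and has no row in the table, and no source used here says whether the counting used strand. The same limit holds for TGFA, EREG and EPGN, which overlap other RefSeq genes that have no row.

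ERBB2 and ERBB3, the partner receptors, were far less abundant than EGFR and both were higher in LF3. ERBB2 stood at 20.8, 20.2 and 17.9 TPM in LF3 libraries, against 13.1, 13.5 and 14.4 TPM in CON libraries. ERBB3 stood at 13.3, 12.9 and 13.2 TPM in LF3 libraries, against 9.42, 9.23 and 8.77 TPM in CON libraries. Every LF3 library lay above every CON library for both genes, and their ratios of means, LF3 over CON, were nearly the same at 1.43 and 1.44. The log2 fold change of ERBB2 was 0.49 ± 0.071 (limma adjusted p = 6.08e-05) and that of ERBB3 was 0.48 ± 0.064 (limma adjusted p = 3.04e-05). Both were smaller, though still called higher, after rescaling, at 0.23 each (limma adjusted p = 0.00461 for ERBB2 and 0.00525 for ERBB3), and with quantile normalization, at 0.19 and 0.20 (adjusted p = 0.0117 and 0.0132). ERBB2 overlaps MIEN1 in RefSeq, a gene that averaged 63.1 ± 3.21 TPM in LF3 and 53.7 ± 3.09 TPM in CON, so the levels of both are uncertain where their reads overlap.

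The make-up of the receptor pool, taken from the values as deposited, is left as it is by any single factor applied to a library, such as the median ratio, but not by quantile normalization. EGFR supplied 88.8 ± 0.283% of the summed TPM of the 3 receptor genes in LF3 and 91.5 ± 0.119% in CON. ERBB2 supplied 6.69 ± 0.177% in LF3 and 5.11 ± 0.121% in CON. For ERBB3 the shares were 4.49 ± 0.309% in LF3 and 3.42 ± 0.207% in CON. EGFR thus dominated the pool in all 6 libraries, with its share lower in each LF3 library than in each CON library. These shares are given as a description and were not tested.

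The ligand genes were split in direction. TGFA, a keratinocyte growth factor that binds EGFR with high affinity, stood at 38.9, 38.7 and 38.8 TPM in LF3 libraries, against 77.3, 78.4 and 75.8 TPM in CON libraries. It was lower by close to the same amount in every LF3 library, with a log2 fold change of -0.97 ± 0.041 (limma adjusted p = 2.05e-09). AREG, the low-affinity ligand amphiregulin, stood at 24.2, 28.9 and 23.4 TPM in LF3 libraries, against 48.4, 51.5 and 48.4 TPM in CON libraries. Its log2 fold change was -0.93 ± 0.075 (limma adjusted p = 4.39e-07), so the falls of TGFA and AREG were of like size, and the difference between them was not tested. Both falls were larger after the other scalings, at -1.24 and -1.32 for TGFA and -1.20 and -1.27 for AREG, in the order median-ratio rescaling and quantile normalization.

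EREG and BTC, which encode epiregulin and betacellulin, were higher in LF3. EREG stood at 19.2, 21.2 and 17.6 TPM in LF3 libraries, against 7.95, 8.23 and 7.54 TPM in CON libraries. The ratio of means, LF3 over CON, was 2.44, and the log2 fold change was 1.19 ± 0.078 (limma adjusted p = 7.95e-08), or 0.93 with median-ratio rescaling and 0.92 with quantile normalization. BTC was scarce, at 1.99, 1.77 and 1.78 TPM in LF3 libraries, against 0.76, 0.76 and 0.43 TPM in CON libraries. All LF3 libraries lay above all CON libraries for BTC, and its log2 fold change was 0.79 ± 0.12 (limma adjusted p = 7.06e-05). BTC averaged 1.85 TPM in LF3 and 0.65 TPM in CON, so it passed the filter of 1 TPM only through its LF3 values. With no filter BTC was also called higher (limma adjusted p = 0.000207). The pseudocount of 1 understates so low a gene, and with a pseudocount of 0.1 the log2 fold change of BTC was 1.41 (adjusted p = 0.000238).

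HBEGF, the heparin-binding ligand, and EPGN, epigen, did not separate the groups. HBEGF stood at 74.5, 71.7 and 69.7 TPM in LF3 libraries, against 69.0, 72.9 and 68.2 TPM in CON libraries. Its log2 fold change was 0.039 ± 0.046 (limma adjusted p = 0.438), with a 95% interval from -0.062 to 0.14. The other scalings put it lower in LF3, with -0.23 for median-ratio rescaling (limma adjusted p = 0.000304) and -0.31 for quantile normalization (adjusted p = 4.64e-05). EPGN was listed at 0.09, 0.09 and 0.08 TPM in LF3 libraries, against 0.06, 0.14 and 0 TPM in CON libraries, too low to be tested.

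**Figure D2:**
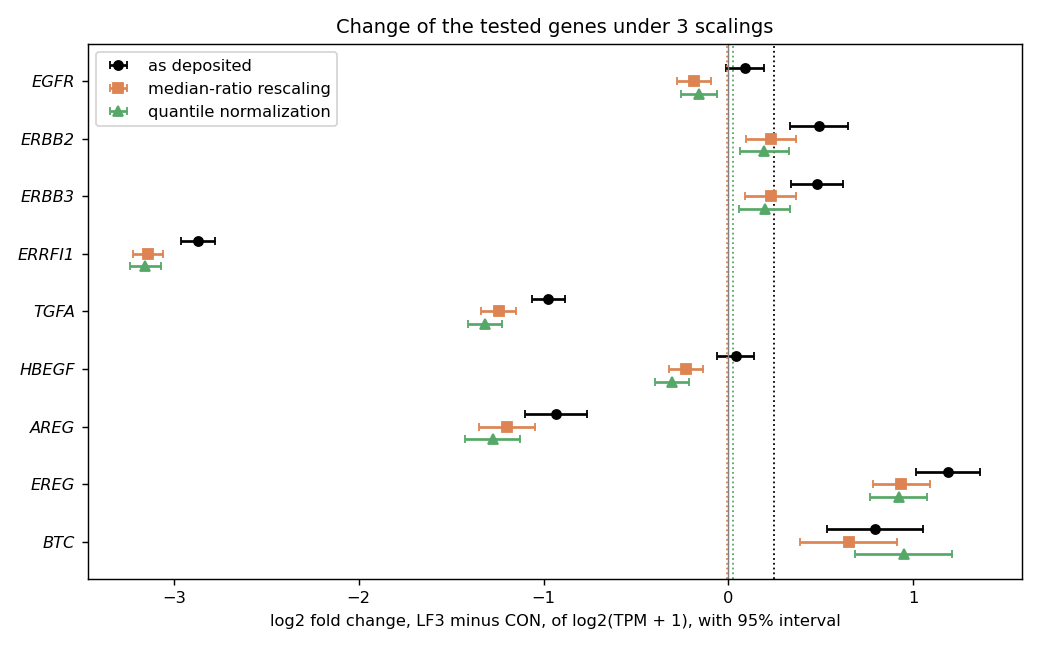
Difference of mean log2(TPM + 1), LF3 minus CON, of the 9 tested genes with 95% intervals from limma, for the values as deposited (circles), with median-ratio rescaling (squares) and with quantile normalization (triangles); dotted lines mark the median of all tested genes under each scaling. EGFR and HBEGF cross from above 0 to below 0 with the scaling, and the other 7 genes keep their side.

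With TGFA and AREG lower and EREG and BTC higher, the ligand pool had another composition in the LF3 libraries. HBEGF supplied 45.7 ± 1.41% of the summed TPM of the 6 ligand genes in LF3 and 34.1 ± 0.257% in CON. TGFA supplied 24.6 ± 0.929% in LF3 and 37.6 ± 0.533% in CON, and was the leading ligand gene in CON but not in LF3. AREG made up 16.2 ± 1.43% in LF3 and 24.1 ± 0.257% in CON. The share of EREG was 12.3 ± 0.745% in LF3 and 3.85 ± 0.0763% in CON. BTC held 1.17 ± 0.0813% in LF3 and 0.316 ± 0.0877% in CON, and EPGN at most 0.0661% in any library. None of these shares overlapped between groups except that of EPGN. The 6 ligand genes together summed to 159, 162 and 151 TPM in LF3 libraries, against 203, 212 and 200.3 TPM in CON libraries. Relative to EGFR the summed ligand level was 0.605 ± 0.0162 in LF3 and 0.839 ± 0.0434 in CON, a ratio that a single factor per library leaves as it is and quantile normalization does not.

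**Figure D3:**
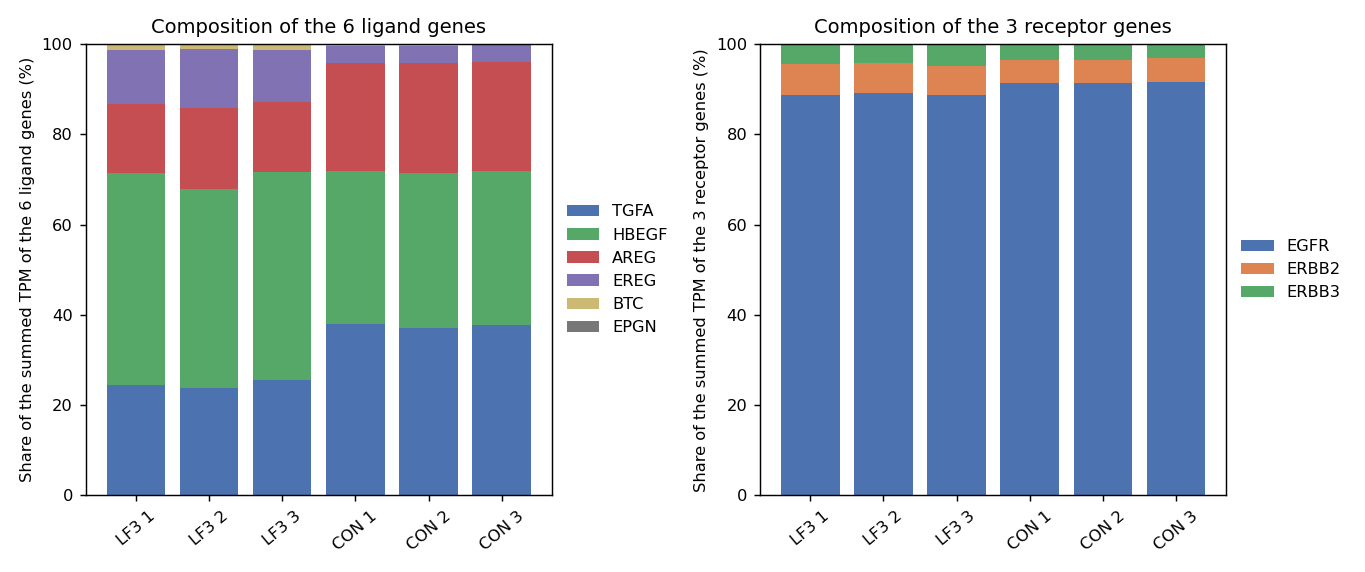
Share of each gene in the summed TPM of the 6 ligand genes (left) and of the 3 receptor genes (right), in percent, with 1 bar per library, LF3 libraries left of CON libraries. TGFA and AREG take less and EREG and HBEGF more of each LF3 bar, and EGFR takes 88.6 to 91.6% of every receptor bar.

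The opposite changes of AREG and EREG concerned genes that lie side by side. In RefSeq, 4 of the ligand genes follow each other among the protein-coding genes of chromosome 4, in the order EPGN, EREG, AREG and BTC. Within this run EREG and BTC were higher in LF3, AREG between them was lower, and EPGN was near 0. EREG RNA amounted to 0.759 ± 0.0302 of AREG RNA in LF3 and 0.160 ± 0.00417 in CON, with the 3 libraries of each group close together. The genes that flank the run also went opposite ways. MTHFD2L, which encodes a mitochondrial enzyme of folate metabolism and lies next to EPGN, averaged 8.60 ± 1.11 TPM in LF3 and 2.35 ± 0.290 TPM in CON (log2 fold change 1.52 ± 0.11, limma adjusted p = 1.37e-07). PARM1, next to BTC, averaged 0.363 ± 0.0702 TPM in LF3 and 3.84 ± 0.369 TPM in CON (log2 fold change -1.83 ± 0.10, limma adjusted p = 2.44e-08). These 2 flanking genes were picked for their position, and PARM1 passed the filter only through its CON values.

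The promoters of AREG and EREG are printed because these neighbours changed in opposite directions. Both windows run from 250 bases before the RefSeq start of the gene to 50 bases after it, on the plus strand of GRCh38.p14, at chr4:74444886-74445185 for AREG and chr4:74364895-74365194 for EREG. They come from RefSeq. Capitals mark a match to one of 3 motifs searched on both strands, and no matches overlapped.
AREG promoter: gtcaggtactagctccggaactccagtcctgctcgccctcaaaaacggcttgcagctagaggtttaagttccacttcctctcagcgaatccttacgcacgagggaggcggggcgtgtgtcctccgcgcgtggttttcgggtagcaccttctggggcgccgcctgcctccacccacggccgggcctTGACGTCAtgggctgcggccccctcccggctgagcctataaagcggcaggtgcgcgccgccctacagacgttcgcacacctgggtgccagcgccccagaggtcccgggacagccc
EREG promoter: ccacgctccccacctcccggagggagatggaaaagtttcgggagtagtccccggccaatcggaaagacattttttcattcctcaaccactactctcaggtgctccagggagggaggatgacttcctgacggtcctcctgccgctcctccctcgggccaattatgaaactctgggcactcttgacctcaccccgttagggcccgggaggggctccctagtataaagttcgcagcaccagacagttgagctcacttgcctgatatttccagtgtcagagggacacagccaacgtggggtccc
The capitals in AREG are TGACGTCA, the cyclic AMP response element, which begins 65 bases before the start. That element was found in 1.98% of 27305 promoters of the same length, and in AREG alone among the 9 promoters that matched these genes. TGANTCA, the AP-1 motif, was found in 7.76% of promoters and here in that of ERBB2. CTTTGAT, a motif of TCF/LEF factors, was found in 2.64% of promoters and in none of these 9 windows. Of the 13784 promoters whose gene has a row in the table, 2.79% held the cyclic AMP element, 5.50% the AP-1 motif and 1.62% the TCF/LEF motif. A match describes letters in a window and shows no binding, and no match says only that these letters are absent from it. The promoter of ERBB3 is not shown.

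ERRFI1 had the largest change of the 10 genes. It stood at 59.5, 60.0 and 56.3 TPM in LF3 libraries, against 424, 452 and 426 TPM in CON libraries. The groups were far apart, with a ratio of means, CON over LF3, of 7.41. Its log2 fold change was -2.87 ± 0.041 (limma adjusted p = 1.45e-12), the 102nd lowest of 12195, and it was -3.14 and -3.15 with median-ratio and quantile scaling. By mean level ERRFI1 ranked 2722nd in LF3 and 276th in CON among the tested genes. In CON it was the most abundant of the 10 genes, above EGFR, and in LF3 it came after EGFR and HBEGF. The ratio of ERRFI1 to EGFR within a library was 0.223, 0.221 and 0.232 in LF3, against 1.76, 1.88 and 1.69 in CON. RNA of the inhibitor thus exceeded that of its main target in each CON library and fell short of it in each LF3 library. RNA levels say nothing of the amount of either protein.

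**Figure D4:**
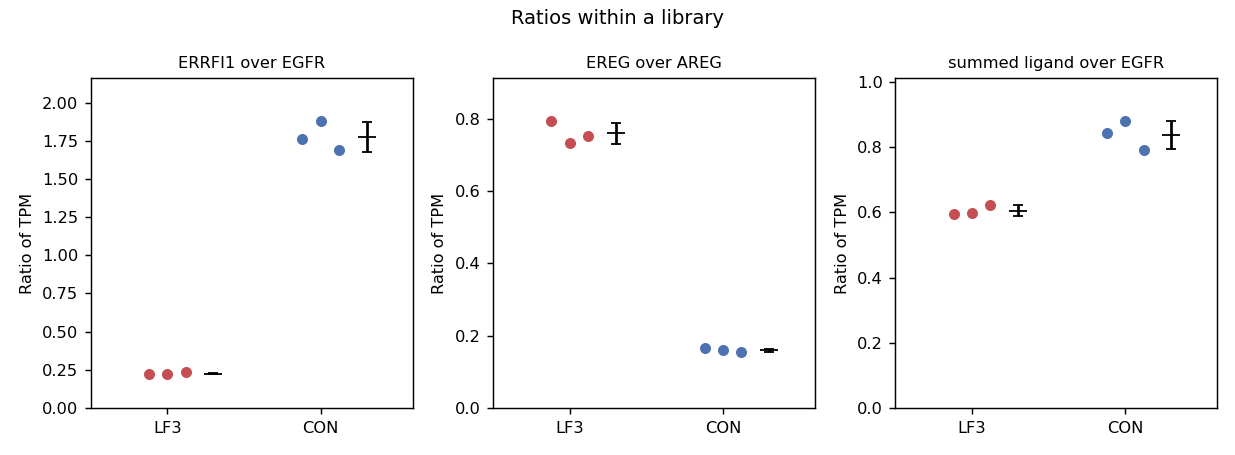
Ratio of TPM within each library, with LF3 in red on the left, CON in blue on the right and the mean and SD in black (n = 3 each), for ERRFI1 over EGFR, EREG over AREG and the summed 6 ligands over EGFR; axes start at 0. The ratio of ERRFI1 to EGFR averages 0.225 in LF3 and 1.77 in CON, that of EREG to AREG is higher in LF3, and that of ligands to EGFR is lower in LF3.

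The order of levels differed between the groups. In LF3 libraries it was EGFR, HBEGF, ERRFI1, TGFA, AREG, ERBB2, EREG, ERBB3, BTC and EPGN, from high to low. ERBB2 and EREG were the only neighbours in this order whose ranges overlapped, at 17.9 to 20.8 TPM for ERBB2 and 17.6 to 21.2 TPM for EREG. In CON libraries the order was ERRFI1, EGFR, TGFA, HBEGF, AREG, ERBB2, ERBB3, EREG, BTC and EPGN, with no overlap between neighbours. EREG thus stood above ERBB3 in LF3 and below it in CON, and HBEGF changed places with TGFA.

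Receptors and ligands of the wider family differed widely in level. The list held ERBB4, EGF and NRG1 to NRG4, of which 5 had a row, 2 passed the filter and both were called, 1 higher and 1 lower. Of all tested genes, 85.5% were called, 53.2% higher and 32.3% lower. NRG1 encodes a neuregulin that binds ERBB3 and ERBB4. It stood at 75.0, 75.3 and 78.2 TPM in LF3 libraries, against 17.7, 18.4 and 18.6 TPM in CON libraries. Its log2 fold change was 2.0 ± 0.047 (limma adjusted p = 3.08e-11), or 1.74 with median-ratio rescaling and 1.67 with quantile normalization. In LF3 libraries this range lay just above that of HBEGF, the most abundant of the 6 EGFR ligand genes there, and in CON libraries NRG1 lay below TGFA, HBEGF and AREG; these differences were not tested. NRG4, a ligand of ERBB4, averaged 1.22 ± 0.187 TPM in LF3 and 2.40 ± 0.733 TPM in CON (log2 fold change -0.60 ± 0.15, limma adjusted p = 0.00314). Below the filter, EGF averaged 0.807 ± 0.0252 TPM in LF3 and 0.550 ± 0.0656 TPM in CON, NRG2 averaged 0.457 ± 0.212 TPM in LF3 and 1.26 ± 0.252 TPM in CON, and ERBB4 stayed at 0.03 TPM or less in every library. NRG3 is not analysed here.

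Genes that act in or regulate the release of ligands from the membrane moved in both directions. The list held proteases of the ADAM and rhomboid families together with inactive rhomboids, a partner of these and a protease inhibitor. Of its 11 genes, all tested, 5 were higher and 5 lower in LF3, or 4 and 6 under each of the other scalings, so 90.9% were called, against 85.5% of all tested genes as deposited. Their median log2 fold change was -0.0097 as deposited, -0.28 with median-ratio rescaling and -0.31 with quantile normalization, against 0.24, -0.0055 and 0.026 for all tested genes under the same scalings. TIMP3, an inhibitor of metalloproteases that include ADAM17, averaged 1.94 ± 0.237 TPM in LF3 and 9.46 ± 0.705 TPM in CON (log2 fold change -1.83 ± 0.093, limma adjusted p = 9.55e-09). The other strongest falls were those of RHBDF1, an inactive rhomboid that escorts ADAM17 to the surface, at -0.90 ± 0.062, and ADAM19, at -0.46 ± 0.091. Higher values were 1.01 ± 0.055 for ADAM15, 1.02 ± 0.072 for ADAM12 and 0.75 ± 0.046 for FRMD8, a partner of the inactive rhomboids. The main sheddases, named here after their values were seen, had smaller changes as deposited. ADAM17, which releases TGFA, AREG, EREG and HBEGF, averaged 36.2 ± 1.36 TPM in LF3 and 41.7 ± 1.20 TPM in CON (log2 fold change -0.20 ± 0.050, limma adjusted p = 0.00307). Its fall was larger with median-ratio rescaling (-0.47, limma adjusted p = 1.90e-06) and quantile normalization (-0.56, limma adjusted p = 5.91e-07). With quantile normalization the change of ADAM17 was larger in size than those of ADAM19 (-0.40) and FRMD8 (0.39). ADAM10, which releases BTC, averaged 80.5 ± 9.39 TPM in LF3 and 61.2 ± 4.47 TPM in CON, and its log2 fold change of 0.39 ± 0.081 (limma adjusted p = 0.00100) lost its call after median-ratio rescaling (0.12, adjusted p = 0.141) and quantile normalization (0.044, adjusted p = 0.596).

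Of 25 adaptor, RAS, RAF, MEK, ERK and PI3K-AKT genes, all tested, 11 were higher and 8 lower in LF3 as deposited, which is 76.0% called against 85.5% of all tested genes. The split turned round with the scaling, to 7 higher and 14 lower with median-ratio rescaling, where 42.6% of all tested genes were higher and 42.7% lower, and to 8 and 15 with quantile normalization, where 43.9% were higher and 41.5% lower. The median log2 fold change was 0.074 as deposited, -0.19 with median-ratio rescaling and -0.28 with quantile normalization. HRAS averaged 113 ± 2.70 TPM in LF3 and 34.8 ± 3.23 TPM in CON (log2 fold change 1.67 ± 0.063, limma adjusted p = 8.29e-10). PTPN11, the phosphatase SHP2 that relays receptor signals to RAS, had a log2 fold change of 1.01 ± 0.054. Among the lower genes, MAP2K1, which encodes the ERK kinase MEK1, had -0.76 ± 0.033, BRAF, a RAF kinase gene, had -1.06 ± 0.078, and PLCG1, a phospholipase that binds activated EGFR, had -0.86 ± 0.060. These 5 genes kept their direction and their call under both other scalings.

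Genes of receptor traffic and inhibition were called in 20 of 21 cases, 12 higher and 8 lower in LF3. That is 95.2%, against 85.5% of all tested genes, of which 53.2% were higher and 32.3% lower. Median-ratio rescaling gave 7 higher and 9 lower (76.2% called), where 85.3% of all tested genes were called, 42.6% higher and 42.7% lower. Quantile normalization gave 5 higher and 10 lower (71.4% called), where 85.4% of all tested genes were called, 43.9% higher and 41.5% lower. The median log2 fold change of the list was 0.27 as deposited, near the 0.24 of all tested genes, -0.0024 with median-ratio rescaling and -0.058 with quantile normalization. CBLB, a ubiquitin ligase that marks activated EGFR for breakdown, averaged 2.99 ± 0.462 TPM in LF3 and 10.2 ± 0.501 TPM in CON (log2 fold change -1.49 ± 0.097, limma adjusted p = 7.27e-08). SH3KBP1, an adaptor that links CBL proteins to endocytosis, had -1.26 ± 0.064. LRIG3 and LRIG2, relatives of the EGFR inhibitor gene LRIG1, went opposite ways, with 1.18 ± 0.086 for LRIG3 and -0.95 ± 0.092 for LRIG2. HGS, which sorts receptors toward lysosomes, had 0.47 ± 0.046, and RNF41, a ubiquitin ligase for ERBB3, had 0.68 ± 0.067.

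Output genes of the ERK pathway did not share a direction. The list is a published transcriptional readout of ERK activity and held 10 genes, of which 9 were tested, 2 were higher and 4 lower in LF3, and 3 were not called. The called share of 66.7% compares with 85.5% of all tested genes. Under both other scalings 2 were higher and 7 lower, so all 9 were called, against 85.3% of all tested genes with median-ratio rescaling and 85.4% with quantile normalization. The median log2 fold change of the list was -0.050 as deposited, -0.32 with median-ratio rescaling and -0.42 with quantile normalization. DUSP6, the phosphatase of ERK, averaged 15.6 ± 0.297 TPM in LF3 and 68.8 ± 0.815 TPM in CON (log2 fold change -2.07 ± 0.047, limma adjusted p = 2.30e-11). The feedback inhibitors SPRY4 and SPRY2 had -1.24 ± 0.076 and -1.07 ± 0.067. DUSP4, another phosphatase of the MAP kinases, went the other way, averaging 50.4 ± 1.87 TPM in LF3 and 14.9 ± 0.709 TPM in CON, as did CCND1, the cyclin D1 gene, which averaged 174 ± 7.16 TPM in LF3 and 71.7 ± 1.92 TPM in CON.

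**Figure D5:**
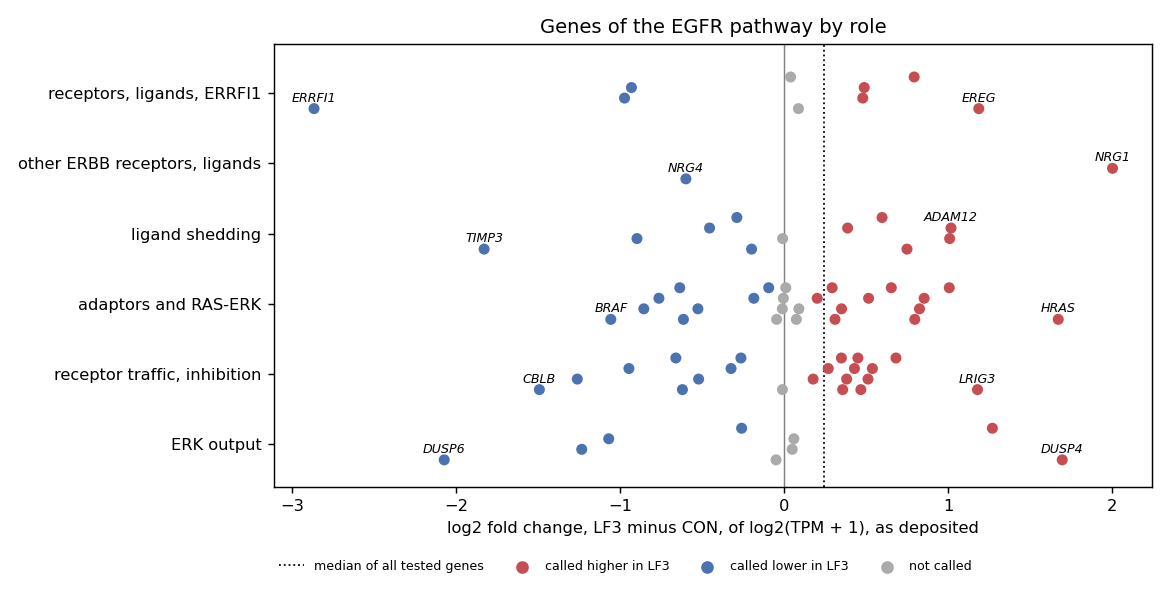
Difference of mean log2(TPM + 1), LF3 minus CON as deposited, of each tested gene of the family and of 5 lists of pathway genes; red points were called higher and blue points lower in LF3, grey points were not called, and the dotted line marks the median of all tested genes at 0.24. The lowest and highest gene of each row is named, and each row has called genes on both sides of 0.

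For each of the 9 tested genes, the other genes with the most similar profile were found by the Euclidean distance between gene-centred log2(TPM + 1) values over the 6 libraries. With 2 groups this distance mostly reflects the size of the difference between them. ERRFI1 was nearest to RNASE7, an antimicrobial ribonuclease of epithelia, at a distance of 0.089, and to ARRDC3, an arrestin-domain gene, at 0.12. Their log2 fold changes were -2.84 ± 0.050 for RNASE7 and -2.88 ± 0.062 for ARRDC3, against -2.87 for ERRFI1. RNASE7 averaged 100.3 TPM in LF3 and 722 TPM in CON. TGFA was nearest to EIF1B, a translation initiation factor gene, at 0.050, and to FBXL2, at 0.054. AREG was nearest to ASTN2 at 0.091 and to ZRSR2, a splicing factor gene, at 0.098. EREG was nearest to ASNSD1 at 0.079 and to DNAJA1, a co-chaperone of HSP70, at 0.087, and DNAJA1 averaged 309 TPM in LF3 and 136 TPM in CON. The nearest genes were TRERF1 and EPM2AIP1 for ERBB2, ZDHHC16 and B4GALT7 for ERBB3, DYSF and MYO1E for EGFR, CHP1 and BICD2 for HBEGF, and CSTF3 and TATDN3 for BTC, at distances of 0.032 to 0.10. No 2 of the 9 genes shared a nearest gene.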

How the data were processed

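RNA of 6 libraries (3 LF3, 3 CON) was sequenced as single-end reads on a BGISEQ500 instrument, per the labels' protocols. The authors deposited 1 table of TPM per gene and library, and HISAT, Bowtie2 and GRCm38.p6 stand in the submitters' processing notes. GRCm38.p6 is a mouse build but the table names human genes, so what was aligned to is unknown, no coordinates of the table's genes are given, and RefSeq (GRCh38.p14) was used for names, gene order and promoters. No source used here states how reads were counted, whether strand was kept or how RNA was selected.

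Values were taken as log2(TPM + 1). The 12195 of 17280 genes whose mean reached 1 TPM were compared between LF3 and CON with limma 3.58.1 in R 4.3.3, in a two-sided test that lets variance follow the mean, and p-values were adjusted over all of them by Benjamini-Hochberg. The fit was checked on a simulated table of known changes. Median-ratio factors came from the 12143 tested genes above 0 in all libraries. The replicate number did not enter the main fit. Levels, shares and ratios are descriptions without a test. Libraries of a group had identical values in 0.320 to 0.541% of tested genes and each was treated as its own sample. Plots were made in matplotlib 3.10.9.

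The 10 genes, the 5 pathway lists, the motifs and the marker lists were chosen with earlier results of these data known. All 10 genes are named, as are up to 3 called genes per direction with the smallest adjusted p in each list, receptors and ligands of the family, and the 2 nearest profiles of each tested gene, except that 1 gene this rule names is not reported here. The planned search for the EGF-like stretch of the ligand proteins was not made. Alternatives tried were other pseudocounts (0.5, 0.1), filters (none, 5 TPM), scalings (median-ratio, quantile) and limma settings (no trend, robust prior, array weights), a replicate block, and fits that each lacked 1 library.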

Additional observations from a re-analysis of the deposited data

How the results depend on the processing

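Of 143 values of the 9 tested genes under alternatives, 137 kept their direction and their side of the threshold, and the other 6 belong to EGFR and HBEGF. EGFR had a log2 fold change of -0.19 with median-ratio rescaling and -0.16 with quantile normalization, both called lower, and was called higher with array weights (0.13, adjusted p = 0.00902). Leaving out each library in turn gave 0.056 to 0.14 for EGFR, with a call only without LF3 replicate 3. HBEGF had -0.23 and -0.31 under these scalings. What lies behind the shift of all genes between scalings was not tested. Of the wider family, 4 genes were called with no filter and 1 with a filter of 5 TPM, where 5 genes and 1 gene were tested. Over all genes tested, 67.8% were called with no filter and 87.5% with a filter of 5 TPM. The filter of 5 TPM also leaves out BTC. The 7 called genes stayed called in each fit that left out a library. The counts of called genes of all other lists stayed within 1.5 times under every alternative run. These counts take no account of direction, and the split between higher and lower changed with the scaling, as given above for each list.

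With the replicate number as a block, 10522 genes were called, against 10427 without it, and the block changed no call among the 9 tested genes. Deviations of same-numbered LF3 and CON libraries correlated at 0.048, 0.11 and 0.16, and those of differently numbered libraries at -0.17 to 0.074. Each LF3 library correlated best with the CON library of its own number, but CON replicate 1 correlated best with LF3 replicate 2 (0.074). Whether the numbers pair the samples is therefore not settled. The depth of each library is unknown, so how precisely BTC and EPGN were measured cannot be stated.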
